A study of Saccharomyces cerevisiae with 12 samples.

Results

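Proteasome genes were examined in SLAM-seq data from budding yeast (Saccharomyces cerevisiae), a method in which RNA made during a short pulse of 4-thiouracil (4tU) is recognised by T>C conversions in sequencing reads. The genes were taken from a list of names and not picked by their measured values. The list was chosen with earlier results of these data known. It held 33 of the 6465 gene intervals in the data, namely 14 genes for the 20S core, 18 for the 19S regulatory particle and RPN4 (YDL020C), which encodes the transcription factor that activates them. The alpha ring of the core was represented by SCL1 (YGL011C), PRE8 (YML092C), PRE9 (YGR135W), PRE6 (YOL038W), PUP2 (YGR253C), PRE5 (YMR314W) and PRE10 (YOR362C). The beta ring was represented by PRE3 (YJL001W), PUP1 (YOR157C), PUP3 (YER094C), PRE1 (YER012W), PRE2 (YPR103W), PRE7 (YBL041W) and PRE4 (YFR050C). The ATPases of the 19S base were RPT1 (YKL145W), RPT2 (YDL007W), RPT3 (YDR394W), RPT4 (YOR259C), RPT5 (YOR117W) and RPT6 (YGL048C). The scaffold subunits RPN1 (YHR027C) and RPN2 (YIL075C) and the ubiquitin receptors RPN10 (YHR200W) and RPN13 (YLR421C) formed a group of 4. The lid was represented by RPN3 (YER021W), RPN5 (YDL147W), RPN6 (YDL097C), RPN7 (YPR108W), RPN8 (YOR261C), RPN9 (YDR427W), RPN11 (YFR004W) and RPN12 (YFR052W). No library lacked T>C reads of any of the 33 genes, and all of them were among the 3677 genes tested.

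The study asked what remains of transcription when the bromodomain proteins Bdf1 and Bdf2 are removed, and whether the extra-terminal (ET) domain of Bdf1 can act without the rest of the protein. There were 12 libraries in 4 groups of 3 replicates, lettered A to C. Cells of the control strain, RDY73, carried pGPD1-OsTIR1:HIS3, a gene for the plant auxin receptor, together with the degron alleles BDF2-3xV5-mAID::KanMX and BDF1-3xV5-mAID::URA3. Cells of the ET strain, RDY388, carried the same alleles and a construct at TRP1 that makes the ET domain from the GPM1 promoter, with a nuclear localisation signal from RPL25 and V5 tags. Each strain was treated for 25 min with DMSO, the solvent, or with the auxin IAA (indole-3-acetic acid) at 1 mM, and 4tU at 5 mM followed for 4 min. The comparison of IAA under DMSO within a strain is called depletion here. No strain without degrons was given IAA, so loss of Bdf1 and Bdf2 and other actions of IAA cannot be told apart. The degron system itself sends its targets to the proteasome. Cells of fission yeast (Schizosaccharomyces pombe) were mixed in before RNA was purified as a spike-in.

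The proteasome is the protease that degrades ubiquitinated proteins. Its 20S core is a barrel of alpha and beta rings, with the active sites inside, and the 19S particle binds ubiquitin, removes it, unfolds the substrate and feeds it into the core. In budding yeast, Rpn4 binds the proteasome-associated control element (PACE) before most of the subunit genes and keeps their expression matched. Rpn4 is itself a very short-lived substrate of the proteasome, which closes a feedback loop. Transcription of RPN4 is known to respond to Pdr1, Pdr3, Yap1 and Hsf1, activators of drug, oxidative and heat stress responses.

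The PACE sequence GGTGGCAAA was looked for on both strands of the 300 bases from 250 before to 50 after each gene's start in the RefSeq R64 genome. It was found for 27 of the 33 genes (81.8%) and in 72 of the 6001 windows of all genes (1.2%). Its last 8 bases, GTGGCAAA, which every match of the whole element contains, were found for 30 of the 33 (90.9%) and in 144 windows (2.4%). The matches lay 84 to 183 bases before the start, with a median of 120, and 19 read in the direction of the gene and 8 against it. The sites of the 8 subunit genes described in most detail in the following paragraphs are shown, each read 5′ to 3′ on the strand named, with the PACE letters in capitals.
SCL1, chrVII:475337-475365, plus strand: ctatccttacGGTGGCAAAttggtgtgtg
PUP2, chrVII:999226-999254, minus strand: aaccaagaccGGTGGCAAAagagtaacct
PRE1, chrV:177683-177711, plus strand: aaatctttacGGTGGCAAAaaataaagaa
PRE4, chrVI:249959-249987, plus strand: acgtatttaaGGTGGCAAAttctaaacca
RPT6, chrVII:411352-411380, minus strand: atgcgagcgaGGTGGCAAAagttgtaata
RPN2, chrIX:220801-220829, minus strand: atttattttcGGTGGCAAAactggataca
RPN5, chrIV:190776-190804, plus strand: ttgacttttcGGTGGCAAAatgcaaaggg
RPN11, chrVI:153259-153287, plus strand: ggacctccaaGGTGGCAAAttcacaagaa
The letters in capitals are alike because they were what was searched for.

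No PACE match was found before RPN4, PRE5, PUP1, RPN8, RPN10 or RPN13, and PRE5, PUP1 and RPN8 held the last 8 bases alone. In the window of RPN4 none of the motifs searched for Pdr1 and Pdr3 (TCCGCGGA or TCCACGGA) or Yap1 (TTAGTAA) was found. A stretch of 600 bases before RPN4 was therefore read, a length chosen after the window had shown none. It held 2 matches to TCCACGGA, 442 and 399 bases before the start, and 1 to TTAGTAA, 374 bases before it. Either form of the first motif was found in 1.98% and the second in 13.7% of the 5999 stretches of this length. These sites are shown because they lie before the 1 gene of the list that rose in T>C reads with the size factors, with the motif in capitals.
RPN4, chrIV:417133-417160, plus strand: ttctttgagtTCCACGGAacttgttatt
RPN4, chrIV:417090-417117, minus strand: tacgaaccttTCCACGGAtaatcacgtg
RPN4, chrIV:417066-417092, plus strand: taaacggctaTTAGTAAtagcgatcac
A match to these letters is a description of the sequence, and binding was not measured here.

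The libraries held 6279282 to 11395597 S. cerevisiae reads, 90321 to 330857 T>C reads (reads with at least 2 conversions) and 445036 to 722822 S. pombe reads. The 33 genes together gave 486 to 2829 T>C reads per library, so single subunit genes rested on few labelled reads. In the 6 libraries of the ET strain BDF1 had 336 to 494 T>C reads and TRP1 43 to 102, against 42 to 86 and 0 to 4 in the control strain, as the labels of the strains imply. The tests were edgeR's quasi-likelihood F test over all 3677 genes with Benjamini-Hochberg adjustment, two-sided, and a gene was called at an adjusted p under 0.05. T>C reads were scaled by size factors taken from all S. cerevisiae reads, all reads were scaled by the S. pombe reads, and the labelled share is the percent of a gene's own reads that were T>C reads, which no scaling between libraries touches.

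On depletion RPN4 rose in T>C reads with the size factors, by 1.31 on the log2 scale in the control strain and by 1.03 in the ET strain. Of the 32 subunit genes, 17 fell and 15 did not pass the test in the control strain, and 15 fell and 17 did not pass in the ET strain. The RPN4 interval lies at chrIV:414863-416708 on the minus strand and includes the 250 bases after the gene. Its T>C reads, scaled by the size factors, were 184, 181 and 194 in the control strain under DMSO and 390, 430 and 562 under IAA. They were 209, 201 and 231 under DMSO and 466, 450 and 395 under IAA in the ET strain. In each strain all libraries under IAA lay above all libraries under DMSO. The rise was 2.48-fold in the control strain (log2 SE 0.14, edgeR adjusted p = 2.3e-15) and 2.04-fold in the ET strain (SE 0.13, edgeR adjusted p = 9.7e-11). Leaving out any library kept both calls, with adjusted p up to 1.3e-09 and 4.1e-08. Of the 3677 genes, 127 and 133 had a higher log2 change than RPN4.

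The direction of the RPN4 change depended on the scaling. With the sum of S. cerevisiae reads as the scale, the log2 change of RPN4 was 0.16 in the control strain and 0.10 in the ET strain (edgeR adjusted p = 0.27 and 0.46). With the S. pombe reads it was -0.02 and -0.16 (SE 0.22 in each, edgeR adjusted p = 0.92 and 0.48), and with TMM factors of the T>C counts it was 1.68 and 1.41. The median change of all genes tested moved with it, from -0.09 and -0.11 with TMM to -0.46 and -0.48 with the size factors, -1.61 and -1.40 with the sum of reads, and -1.78 and -1.64 with S. pombe. Relative to that median RPN4 stood 1.77 and 1.51 higher with the size factors, a distance that a change of library scale leaves about the same by construction. In bulk samples fewer responding cells and less RNA per cell cannot be told apart.

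**Figure D1:**
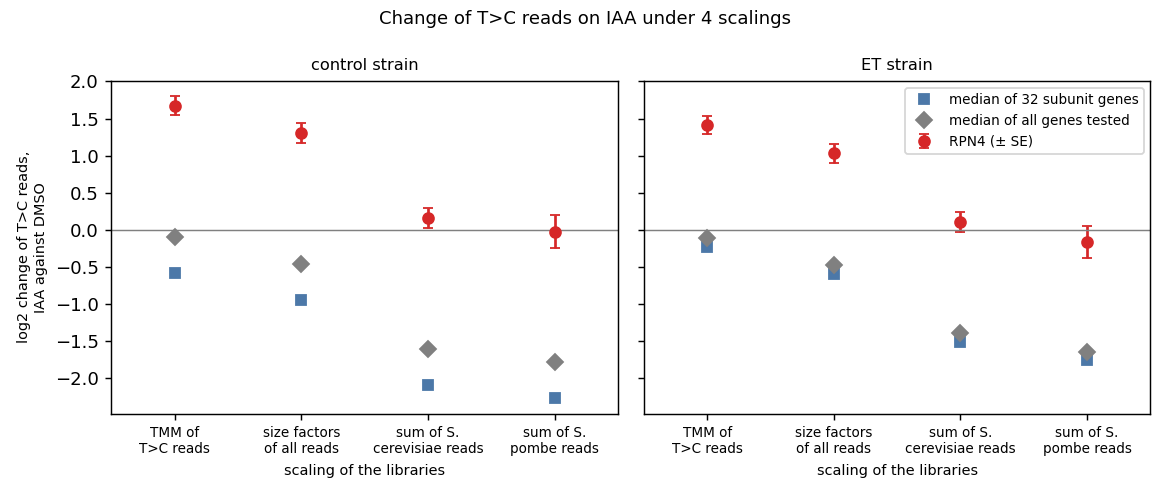
Log2 change of T>C reads on IAA (y axis) in the control strain (left) and the ET strain (right) under 4 scalings of the libraries (x axis). Circles are RPN4 with its SE, squares the median of the 32 subunit genes and diamonds the median of all genes tested: RPN4 stands above both under each scaling, and its own change goes from 1.68 and 1.41 with TMM to -0.02 and -0.16 with the S. pombe reads.

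Within the 33 genes the shift needs no scaling. RPN4 supplied 13.1, 12.2 and 13.9% of their T>C reads in the control strain under DMSO and 36.5, 39.7 and 41.4% under IAA. For the ET strain the values were 13.5, 13.0 and 13.0% under DMSO and 34.5, 31.7 and 27.7% under IAA. The groups did not overlap in either strain. As a share of all T>C reads of a library, RPN4 went from 0.106% ± 0.00752 (SD, n = 3) to 0.229% ± 0.0366 in the control strain and from 0.109% ± 0.0032 to 0.209% ± 0.0253 in the ET strain. The 32 subunit genes together went the other way, from 0.707% ± 0.00873 to 0.354% ± 0.0295 and from 0.719% ± 0.0383 to 0.458% ± 0.0372. These shares compare libraries and not genes, since reads were not divided by length. The T>C reads of whole libraries also fell on IAA. Their mean percent of all S. cerevisiae reads went from 2.65 to 1.37 in the control strain and from 3.09 to 1.73 in the ET strain. A share of T>C reads can therefore rise without a rise in the new RNA of a gene.

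**Figure D2:**
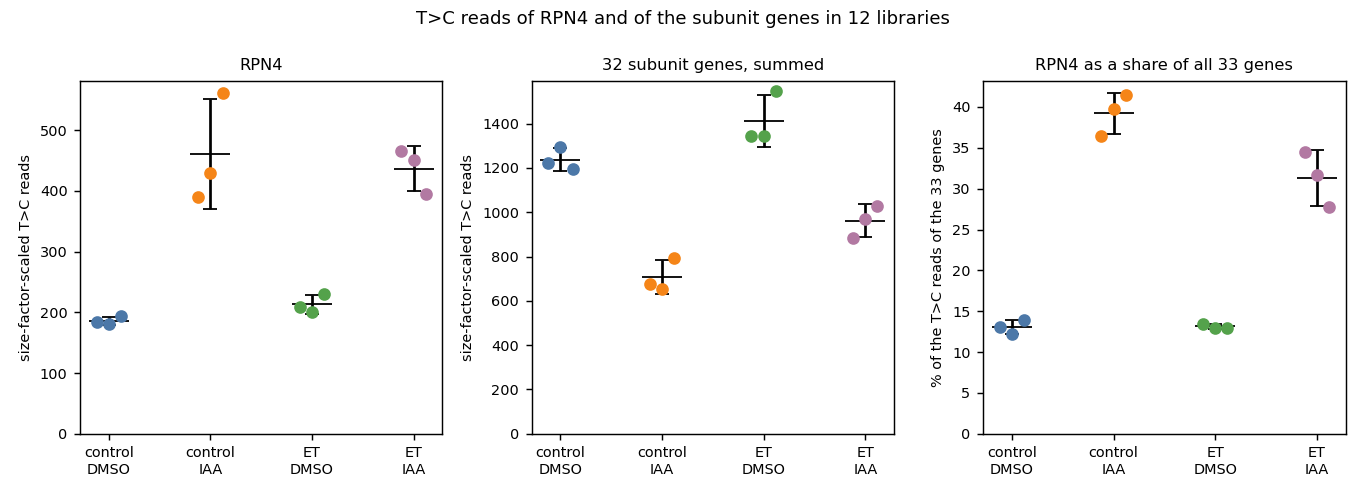
T>C reads in each of the 12 libraries by group (x axis), for RPN4 and for the 32 subunit genes summed, scaled by size factors of all reads, and RPN4 as a percent of the T>C reads of the 33 genes. Points are libraries and bars the group means: RPN4 is higher and the subunit sum lower under IAA in both strains under this scaling, and RPN4's percent goes from 12.2 to 13.9 under DMSO to 27.7 to 41.4 under IAA.

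In the control strain, depletion lowered the scaled T>C reads of 17 of the 33 genes, against 28.7% of all genes tested called lower, and RPN4 was the 1 gene of the list called higher, against 14.3% of all genes. The median log2 change was -0.92 over the 33 genes and -0.46 over all genes, and 24 of the 33 lay below the median of all genes. Genes without a T>C read in some library are left out of that median. Without this filter the median was lower in the ET strain, and for the control strain it is not given here. The alpha ring, which gates the core, had 6 of 7 genes lower with a median of -1.15, and the beta ring had 4 of 7 lower with a median of -1.20. Among the beta genes that encode active sites, PRE3 (-1.43) and PRE2 (-1.40) fell and PUP1 (-0.64) did not pass the test (adjusted p = 0.11). In the 19S particle, 3 of the 6 ATPase genes fell (RPT1 -1.27, RPT2 -1.26 and RPT4 -0.92), 3 of the 8 lid genes fell (RPN11 -1.77, RPN12 -1.18 and RPN3 -1.01), and of the 4 scaffold and receptor genes RPN13 fell (-0.74). The group medians were -0.90 for the ATPases, -0.62 for the lid and -0.55 for the scaffolds and receptors. No test of one subunit group against another was made. Of the 17 genes, 13 kept the call whichever library was left out. The other 4 were RPN3, PRE9, RPN13 and RPT4, and leaving out 1 library gave 14 to 19 genes called lower.

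**Figure D3:**
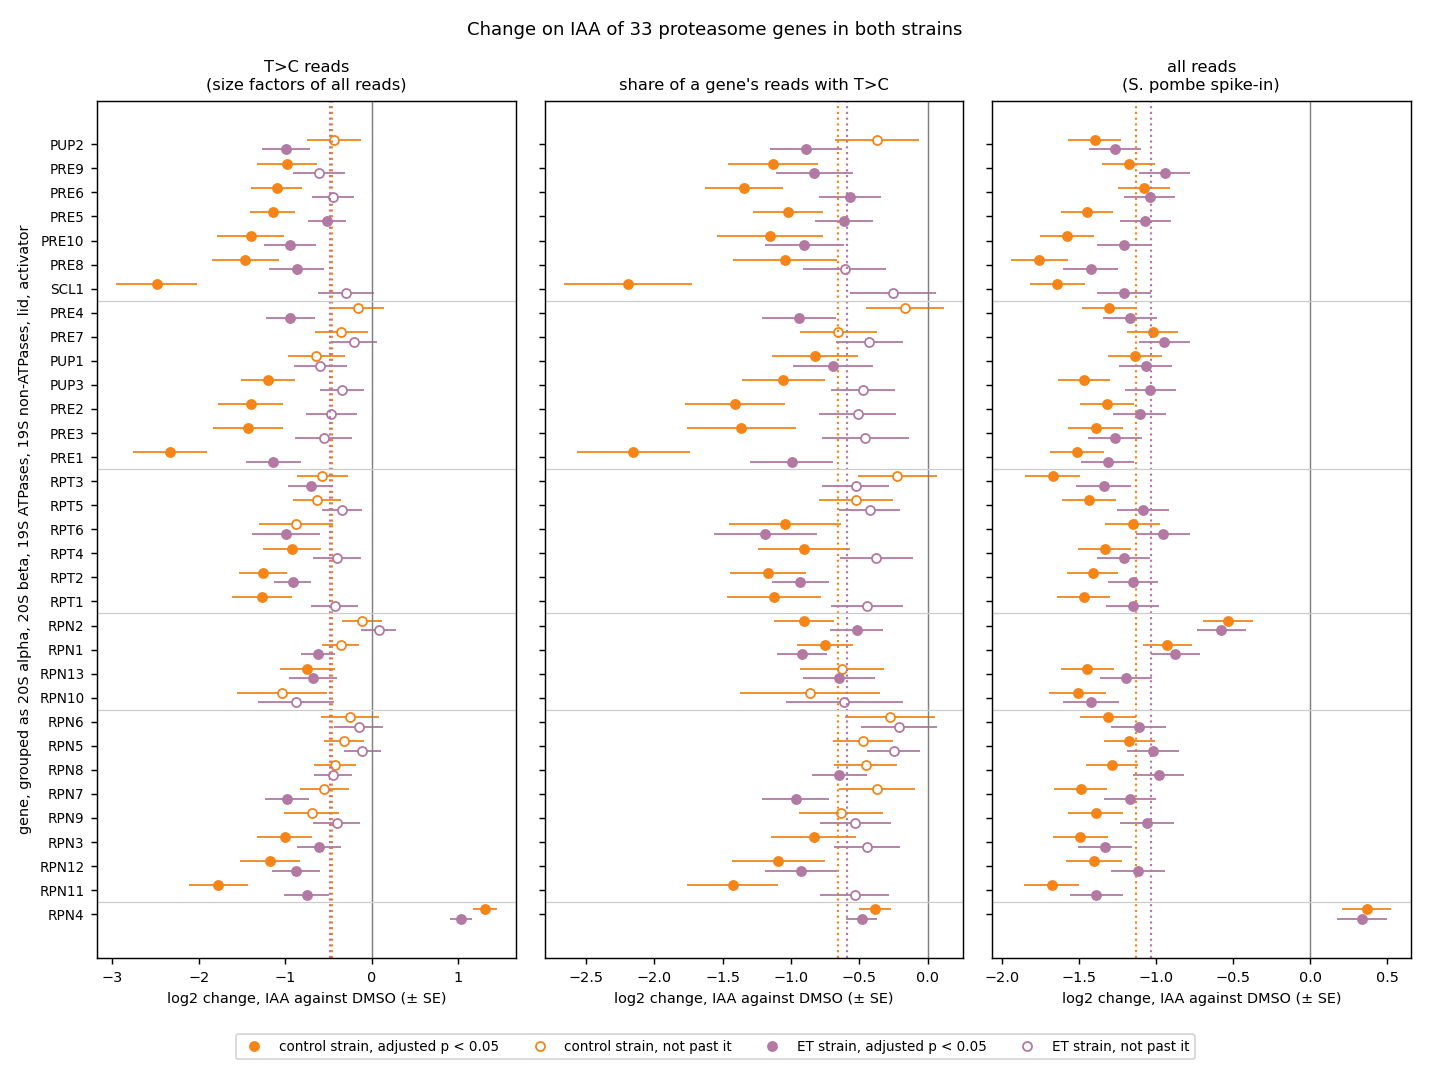
Log2 change on IAA with its SE (x axis) of the 33 genes (y axis, by subunit group) in the control and ET strains, for T>C reads, the labelled share and all reads. Filled points passed an adjusted p of 0.05: the 32 subunit genes fell in all reads, scaled by S. pombe reads, in both strains. With size factors 17 and 15 of them fell in T>C reads, where RPN4 stands apart on the right. The scales differ, so the falls cannot be compared between these panels. With the S. pombe reads, T>C reads of 32 genes were called lower in each strain.

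SCL1, PRE1 and RPN11 had the 3 lowest log2 changes in the control strain. SCL1 encodes an alpha subunit, and its scaled T>C reads were 29.0, 27.1 and 26.2 under DMSO and 3.17, 4.46 and 6.81 under IAA. The latter rest on 2, 2 and 4 reads, against 46, 43 and 36, and the groups lay far apart. In the edgeR fit the log2 change was -2.49 with an SE of 0.47 (adjusted p = 7.1e-06). PRE1, a beta subunit gene, had 27.1, 39.1 and 35.0 under DMSO and 7.92, 6.69 and 5.11 under IAA. Its change was -2.33 (SE 0.43, edgeR adjusted p = 3.8e-06), again with no overlap. RPN11 encodes the deubiquitinase of the lid, and its values were 44.7, 50.5 and 40.1 under DMSO and 14.3, 6.69 and 17.0 under IAA. The change was -1.77 (SE 0.34, edgeR adjusted p = 9.1e-06), and all 3 libraries under IAA were below those under DMSO. These 3 calls held without any 1 library, with adjusted p up to 0.00065, 0.00033 and 0.00055.

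RPN2 and PRE4 had the highest log2 changes among the subunit genes of the control strain. RPN2, the large scaffold of the base, had scaled T>C reads of 54.8, 64.4 and 58.3 under DMSO and 38.0, 71.3 and 57.9 under IAA. The groups overlapped, and the log2 change was -0.12 (adjusted p = 0.70). PRE4, a beta subunit gene, had 28.3, 43.6 and 25.5 under DMSO and 31.7, 20.1 and 34.1 under IAA. Here too the groups overlapped (-0.16, adjusted p = 0.68). The sign of both changes turned with TMM factors, to 0.25 and 0.22, without passing the test.

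In the ET strain, depletion lowered the scaled T>C reads of 15 of the 33 genes, against 30.2% of all genes called lower, and raised RPN4, against 12.1% called higher. With TMM factors 3 were called lower, against 11.4% of all genes, and with DESeq2 9, against 22.8%. The median was -0.59 over the 33 genes and -0.48 over all genes, and 19 of the 33 lay below the median of all genes. With no filter on low counts 13 of the 33 lay below the median of the 6214 genes then tested, which was -0.66. The alpha ring had 4 of 7 genes lower (median -0.61), the beta ring 2 of 7 (-0.56), the ATPases 3 of 6 (-0.57), the scaffolds and receptors 2 of 4 (-0.65) and the lid 4 of 8 (-0.53). RPT2 (-0.92), an ATPase gene whose product helps to open the gate of the core, and RPN7 (-0.98), a lid gene, were called whichever library was left out, as were PUP2 and PRE4. The other 11 calls each depended on at least 1 library. Without ET DMSO replicate C, 7 genes were called lower, and without ET IAA replicate A, 6 were. Leaving out any other library of these groups gave 10 to 15.

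PRE1 had the lowest log2 change of the ET strain, with scaled T>C reads of 40.8, 34.4 and 28.8 under DMSO and 17.5, 24.9 and 5.61 under IAA. The groups did not overlap and the change was -1.14 (SE 0.32, edgeR adjusted p = 0.0028), but without ET IAA replicate C it was -0.69 (edgeR adjusted p = 0.097). PUP2, an alpha subunit gene, had 37.3, 46.4 and 51.2 under DMSO and 23.4, 18.7 and 25.8 under IAA. All libraries under IAA were lower, and the change was -0.99 (SE 0.28, edgeR adjusted p = 0.0028). RPT6, an ATPase gene, had 11.7, 22.9 and 19.9 under DMSO and 7.30, 11.2 and 8.97 under IAA. The change was -0.99 (SE 0.39, edgeR adjusted p = 0.035) and did not pass without ET DMSO replicate B (edgeR adjusted p = 0.14), ET DMSO C (0.082), ET IAA A (0.11) or ET IAA C (0.085), nor with DESeq2 (0.072).

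Genes described above in the control or the ET strain alone are given here in the other strain, and RPN5 in both. The test of whether the responses of the strains differed, described below, called none of these genes in T>C reads. PRE4 had 44.9, 38.8 and 40.4 under DMSO and 21.9, 21.1 and 21.3 under IAA in the ET strain, a change of -0.94 (SE 0.28, edgeR adjusted p = 0.0051) with no overlap. SCL1 had 15.2, 25.7 and 25.0 under DMSO and 19.0, 14.9 and 20.2 under IAA there, and its change was -0.29 (adjusted p = 0.46) with overlapping groups. RPN11 had 44.2, 38.2 and 55.1 under DMSO and 17.5, 26.1 and 35.9 under IAA. It changed by -0.75 (SE 0.27, edgeR adjusted p = 0.017) and did not pass without ET DMSO replicate C (edgeR adjusted p = 0.096), ET IAA A (0.12) or ET IAA B (0.052). RPN2 had 62.9, 59.0 and 76.2 under DMSO and 86.1, 56.0 and 68.4 under IAA (log2 change 0.08, adjusted p = 0.77). RPN5, a scaffold gene of the lid, had 47.7, 75.4 and 77.5 under DMSO and 55.5, 60.9 and 69.5 under IAA (-0.11, adjusted p = 0.69), and in the control strain 72.4, 61.9 and 59.0 under DMSO and 47.5, 29.0 and 74.9 under IAA (-0.32, adjusted p = 0.26). For both genes the groups overlapped in each strain. In the control strain PUP2 had 29.0, 39.8 and 23.3 under DMSO and 25.4, 22.3 and 20.4 under IAA (-0.44, adjusted p = 0.25), also with overlap. RPT6 there had 15.1, 18.9 and 22.6 under DMSO and 12.7, 11.1 and 6.81 under IAA, without overlap but short of the threshold (-0.87, adjusted p = 0.087).

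**Figure D4:**
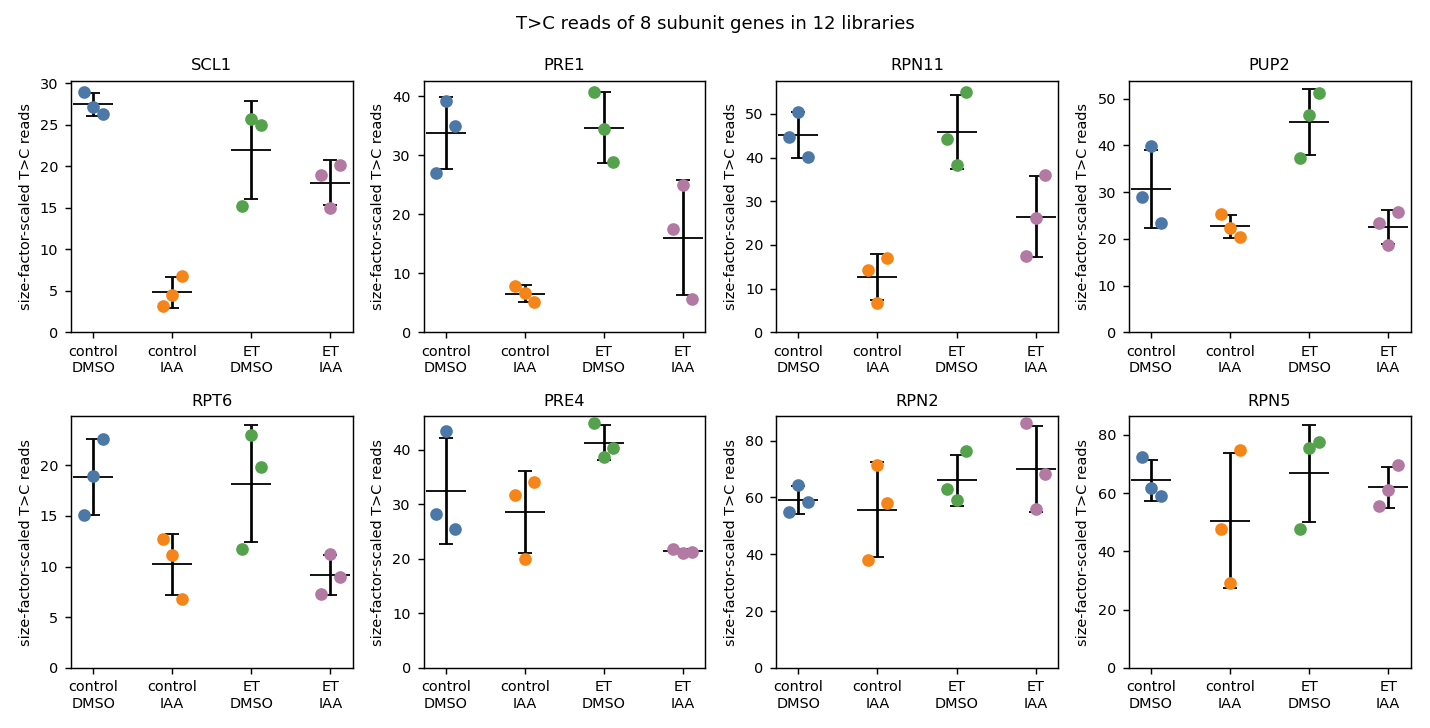
T>C reads scaled by size factors of all reads (y axis) in each library by group (x axis) for SCL1, PUP2, PRE1, PRE4, RPT6, RPN2, RPN5 and RPN11. Points are libraries and bars group means: SCL1 lies at 3.17 to 6.81 in the control strain under IAA and at 14.9 to 20.2 in the ET strain under IAA, while RPN2 overlaps between DMSO and IAA in both strains.

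Called lower in both strains were 9 genes, which is 52.9% of the 17 and 60.0% of the 15. The same overlap was not counted over all genes, so these percents cannot be called high or low. The genes that passed in the control strain and not in the ET strain were PRE2, PRE3, PRE6, PRE9, PUP3, RPT1, RPT4 and SCL1. PRE4, PUP2, RPN1, RPN7, RPT3 and RPT6 passed in the ET strain and not in the control strain. Passing in 1 strain and not in the other does not show a difference, which the interaction test of the next paragraphs addresses. Across the 32 subunit genes the T>C changes of the 2 strains had a Spearman correlation of 0.25, and across all genes tested one of 0.76, as a description over genes that share libraries. For all reads the correlation was 0.82 across the 32 genes and 0.97 across all genes. In T>C reads of the ET strain the 32 genes ran from -1.14 to 0.08, and all genes from -2.99 to 2.78. A narrower span lowers a correlation, so the lower values do not show that the 32 genes responded less alike in the 2 strains.

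With the S. pombe reads as the scale, T>C reads of 32 of the 33 genes were called lower in the control strain, against 81.7% of all genes, and of 32 in the ET strain, against 83.7%. The remaining gene was RPN4. The median of the 33 genes was -2.24 in the control strain and -1.74 in the ET strain, against -1.78 and -1.64 for all genes.

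The labelled share asks how much of the RNA of a gene was made in the pulse, without scaling. Over the 32 subunit genes of the control strain its mean went from 3.95% ± 0.211 (SD, n = 3) under DMSO to 2.16% ± 0.243 under IAA, and in the ET strain from 4.41% ± 0.335 to 2.79% ± 0.212. It fell for 21 of the 33 genes in the control strain, against 38.5% of all genes, and for 17 in the ET strain, against 38.3%. The median changes were -0.91 and -0.57 over the 33 genes and -0.66 and -0.59 over all genes. By subunit group in the control strain, 6 of 7 alpha genes, 5 of 7 beta genes, 4 of 6 ATPase genes, 3 of 8 lid genes and 2 of 4 scaffold and receptor genes fell. The labelled share of SCL1 in the control strain was 4.28, 3.71 and 3.54% under DMSO and 0.545, 0.840 and 1.10% under IAA, and that of PRE1 3.40, 4.64 and 4.24% under DMSO and 1.08, 0.993 and 0.677% under IAA. These 2 genes had the largest falls of the labelled share among the 33 in that strain, -2.19 and -2.16.

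RPN4 had a higher labelled share than the sum of the subunits in every library. It was 13.5, 15.6 and 14.7% in the control strain under DMSO and 9.64, 10.2 and 13.6% under IAA. The ET strain had 17.5, 15.8 and 19.6% under DMSO and 12.6, 12.8 and 12.3% under IAA. The share of RPN4 fell in both strains, by 0.39 on the log2 scale in the control strain (edgeR adjusted p = 0.0058) and by 0.48 in the ET strain (edgeR adjusted p = 0.00025). In the control strain the groups overlapped, and without control IAA replicate A the change was -0.29 (edgeR adjusted p = 0.10). These falls were nearer to 0 than the median of all genes.

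All reads of a gene hold old and new RNA together. Scaled by the S. pombe reads, all reads of each of the 32 subunit genes fell in both strains, against 74.2% of all genes called lower in the control strain and 75.8% in the ET strain, and no call was lost when a library was left out. The medians were -1.40 and -1.12 over the 33 genes and -1.13 and -1.03 over all genes. PRE8, an alpha subunit gene, fell most (-1.76 and -1.43), and RPN2 least (-0.53 and -0.58). RPN2 had 4816, 5026 and 4909 reads per 1000000 S. pombe reads in the control strain under DMSO and 3240, 3730 and 3216 under IAA. SCL1 had 1662, 1848 and 1804 under DMSO and 576.6, 534.8 and 589.3 under IAA, so the groups of both genes stood apart, those of SCL1 further. With median-of-ratios size factors in place of the spike-in, where the median of all genes tested was 0.19 and 0.14, 6 of the 33 genes were called lower and 6 higher in the control strain, against 28.3% and 47.8% of all genes. In the ET strain 3 were called lower and 7 higher, against 25.3% and 44.9%.

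RPN4 was the 1 gene of the list called higher in all reads, against 2.2% of all genes called higher in the control strain and 0.979% in the ET strain. It had 3336, 2922 and 3199 reads per 1000000 S. pombe reads in the control strain under DMSO and 4008, 4249 and 3932 under IAA. The ET strain had 2927, 3212 and 3842 under DMSO and 3722, 4170 and 4700 under IAA. The groups stood apart in the control strain and overlapped in the ET strain. The rises were small (0.37, edgeR adjusted p = 0.032, and 0.34, edgeR adjusted p = 0.0496). The first did not pass without control DMSO B or C or without any 1 of the control IAA libraries (edgeR adjusted p = 0.056 to 0.13), and the second did not pass without ET DMSO A or B or ET IAA B or C (0.087 to 0.20). As a percent of all reads of the 33 genes, RPN4 went from a mean of 3.91 to 11.2 in the control strain and from 3.65 to 9.16 in the ET strain.

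Before depletion the strains were compared to ask whether the ET construct alone moved these genes. With DMSO none of the 33 genes was called in T>C reads by edgeR in either direction, against 0.163% of all genes. Before adjustment 2 were below 0.05, a threshold for which the share of all genes is not given here. Over the 33 genes the median difference was 0.16 and over all genes 0.18. For RPN4 the difference was 0.20, with an interval of 2 SE from -0.07 to 0.46, and for SCL1 it was -0.31, from -0.86 to 0.24.

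With IAA, SCL1 was the 1 gene of the 33 that was higher in the ET strain in T>C reads, against 0.707% of all genes called higher. Its scaled T>C reads were 3.17, 4.46 and 6.81 in the control strain and 19.0, 14.9 and 20.2 in the ET strain, a log2 difference of 1.89 with an SE of 0.53 (edgeR adjusted p = 0.041) and no overlap. The call rested on every library: leaving out any of the 6 gave adjusted p of 0.060 to 0.20, with differences of 1.62 to 2.25. The labelled share of SCL1 was also called (1.69, edgeR adjusted p = 0.041), as the 1 gene of the list against 4.32% of all genes, and did not pass when any library other than ET IAA replicate B was left out (0.065 to 0.23). The median difference in T>C reads was 0.39 over the 33 genes and 0.17 over all genes, and 25 of the 33 lay above the latter. PRE1 (1.23, interval 0.21 to 2.26) and RPN11 (1.04, interval 0.27 to 1.81) had adjusted p of 0.22 and 0.17. RPN4 had a difference of -0.08, with an interval from -0.34 to 0.19.

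**Figure D5:**
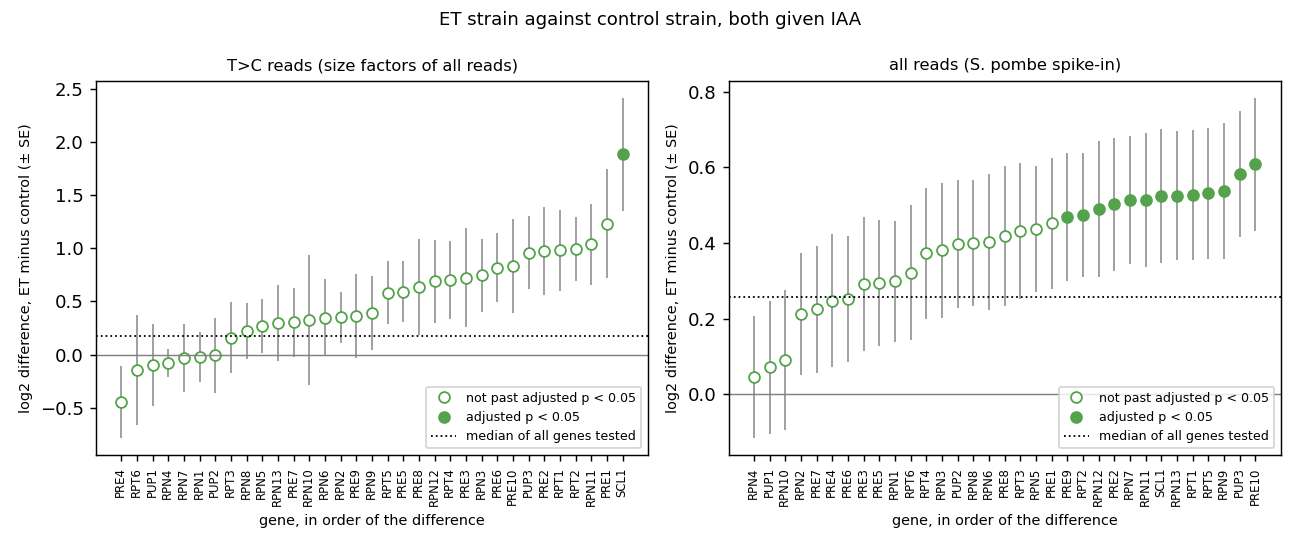
Difference between the ET strain and the control strain under IAA on the log2 scale with its SE (y axis) for each of the 33 genes (x axis, in order of the difference), for T>C reads and for all reads. Filled points passed an adjusted p of 0.05 and the dotted line is the median of all genes tested. SCL1 passed in T>C reads (scaled by size factors) at 1.89 and 13 genes passed in all reads (scaled by S. pombe reads).

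In all reads scaled by S. pombe, 13 of the 33 genes were higher in the ET strain under IAA, against 14.5% of all genes, with a median difference of 0.42 over the 33 and 0.26 over all genes. They came from each subunit group: PRE10 (0.61), SCL1 (0.52) and PRE9 (0.47) of the alpha ring, PUP3 (0.58) and PRE2 (0.50) of the beta ring, RPT5 (0.53), RPT1 (0.53) and RPT2 (0.47) of the ATPases, the receptor RPN13 (0.53), and RPN9 (0.54), RPN11 (0.51), RPN7 (0.51) and RPN12 (0.49) of the lid. PRE10 had 647.3, 671.9 and 613.6 reads per 1000000 S. pombe reads in the control strain and 798.6, 1005 and 1142 in the ET strain. PUP3 had 1254, 1364 and 1169 against 1440, 2078 and 2148. RPN9 had 510.6, 586.5 and 573.0 against 622.5, 903.4 and 896.5. ET IAA replicate A was the lowest ET library for each of these 3 genes, and the groups did not overlap. Replicate A also had the fewest S. cerevisiae reads per S. pombe read (13.0, against 13.7 in B and 17.6 in C). All genes of a library share 1 scale, so the order of the replicates is not separate evidence for each gene. At the other end of the 13, PRE9 had 1023, 1052 and 1039 against 1098, 1414 and 1800. RPT2 had 1772, 1912 and 1761 against 2007, 2561 and 2994. RPN12 had 526.3, 602.2 and 500.0 against 615.1, 800.1 and 870.2, and for these too replicate A was the lowest. The count was 28 without ET IAA replicate A, 3 without control IAA replicate B and 0 without any of the other 4 libraries. The shares of all genes in those fits are not given here. With size factors in place of the S. pombe reads 2 genes were higher and 2 lower, against 4.49% and 18.2% of all genes. Under DMSO the ET strain already stood higher on the S. pombe scale. The median difference there was 0.20 over the 32 subunit genes and 0.15 over all genes. None of the 33 was called under DMSO, against 5 lower and 8 higher of the 3677 genes tested. The difference under IAA is thus not by itself a difference in the response to depletion.

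Whether the response to depletion differed between strains was tested as an interaction over all 12 libraries. No gene of the 33 was called by edgeR in T>C reads, against 0.109% of all genes called in either direction. Before adjustment 4 had a p under 0.05, namely SCL1, PRE1, RPN11 and PUP3. The share of all genes under that looser threshold is not given here, so the 4 show no difference particular to these genes. The difference of responses was largest for SCL1 (2.20, SE 0.60, edgeR adjusted p = 0.16), with an interval of 2 SE from 1.00 to 3.39. For PRE4, with the lower change in the ET strain, it was -0.78, from -1.61 to 0.05. For RPN4 it was -0.28, from -0.65 to 0.10. The median was 0.29 over the 33 genes and -0.01 over all genes, and 25 of the 33 lay above the latter. No gene of the 33 was called in the interaction for all reads or the labelled share, where 0 and 4 had an unadjusted p under 0.05, with the same limit.

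Subunit genes were also described by whether the promoter window held PACE. Among the 27 with GGTGGCAAA, 15 fell in T>C reads in the control strain (median -0.98) and 13 in the ET strain (median -0.61), against 28.7% and 30.2% of all genes tested (medians -0.46 and -0.48). Among the 5 subunit genes without it, 2 fell in each strain (medians -0.74 and -0.59). Of other genes, 30 with the same letters in the window were tested. In the control strain 8 of them fell and 5 rose (median -0.58), and in the ET strain 8 fell and 6 rose (median -0.37), where 14.3% and 12.1% of all genes were called higher. No test of genes with PACE against genes without it was made. The spread of these other genes ran from -2.51 to 1.41 in the control strain, the last being UBI4, while the 27 ran from -2.49 to -0.12.

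Genes that work with the proteasome were described from 3 lists, to be read against the 28.7% of all genes called lower and 14.3% called higher in the control strain, and 30.2% and 12.1% in the ET strain. Of 16 assembly chaperones and associated factors, 10 were tested. In the control strain TMA17, which helps to assemble the ATPases under stress, was higher (1.39, edgeR adjusted p = 0.0025), and SEM1, a small lid component (-1.37), and POC4, a chaperone of core assembly (-1.36), fell. In the ET strain BLM10, an alternative activator of the core (-1.36), HUL5, a proteasome-bound ubiquitin ligase (-1.21), SEM1 (-1.06) and UMP1, which matures the core (-1.05), fell. The medians over the 10 were -0.73 and -0.72. POC4 did not pass without control IAA replicate A (edgeR adjusted p = 0.17), BLM10 without ET IAA B (0.17), HUL5 without ET DMSO A (0.11) or UMP1 without ET IAA C (0.20), among the libraries left out.

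Of 23 genes for ubiquitin and delivery to the proteasome, 21 were tested, with 5 lower and 1 higher in the control strain (median -0.57) and 9 lower and 1 higher in the ET strain (median -0.81). The higher gene was UBI4, the stress-induced polyubiquitin gene, in both strains (1.41, edgeR adjusted p = 1.4e-08, and 1.25, edgeR adjusted p = 1.2e-07). UBA1 (-1.21), the ubiquitin-activating enzyme, RAD23 (-1.20), a shuttle factor, and UBC7 (-1.19), a conjugating enzyme of the endoplasmic reticulum, had the largest falls in the control strain. The largest falls of the ET strain were those of UFD1 (-1.52), a cofactor of the Cdc48 segregase, UBC6 (-1.35), another conjugating enzyme, and SSM4 (-1.19), a membrane ligase. Of 4 known regulators of RPN4 transcription 1 was tested. This was YAP1, at 0.76 (edgeR adjusted p = 0.0037) and 0.58 (edgeR adjusted p = 0.018). Among these genes RAD23 did not pass without control IAA replicate A (0.22), UBC7 or YAP1 without control IAA C (0.28 and 0.063), YAP1 without ET DMSO A (0.053) and UBC6 without ET IAA C (0.12), as edgeR adjusted p. As for RPN4, these higher values depended on the scaling: with the S. pombe reads TMA17 stood at 0.07 in the control strain, UBI4 at 0.07 and 0.12, and YAP1 at -0.58 and -0.59, so that YAP1 changed sign. In all reads scaled by S. pombe, UBI4 did not pass in either strain (0.32 and 0.16).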

How the data were processed

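SLAM-seq data of 12 libraries were used, with samples grouped by the strain and treatment in the labels. The authors trimmed reads with fastp (version 0.23.2) and bbduk, and counted them with SLAM-DUNK (0.4.3, per the file headers) on S. cerevisiae R64 and S. pombe genomes. The deposited values are read counts per gene interval, not normalized and not pooled: all reads, T>C reads with at least 2 conversions and multimapping reads. Of 6465 S. cerevisiae intervals, 6460 reached 250 bp past the 3′ end of the gene, so intervals on 1 strand can share reads. This held for PRE10, RPT2 and RPN6, whose intervals overlap that of a neighbour. Multimapping reads numbered 22 to 162 per gene of the 33 over all 12 libraries. No 2 libraries held identical values.

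Genes without a 0 among their 12 T>C counts (3677) entered quasi-likelihood fits of edgeR 4.0.16 (R 4.3.3), with a mean for each of the 4 groups and a prior count of 0.125. The offsets were median-of-ratios size factors from all S. cerevisiae reads for T>C counts, sums of S. pombe reads for all reads, and a gene's own reads for the labelled share. Two-sided p-values were adjusted over the 3677 genes (Benjamini-Hochberg). Standard errors come from the F statistic, and intervals span 2 of them on each side. The edgeR step was tested on simulated data. DESeq2 (1.42.0), TMM factors, other scalings and filters, a replicate block and the omission of each library were tried. Python 3.11.15 with pandas 2.3.3 and numpy 2.4.6 was used for the rest.

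Values in every library are given for RPN4, for the genes with the 3 highest and 3 lowest T>C changes in each depletion comparison, and for genes called between strains (where over 6 were called, the 3 highest and 3 lowest). Of other pathway lists, at most the 4 largest called changes are named. The genes, lists and tests were chosen with earlier results of these data known. The libraries of a group are taken as separate cultures. With 3 of them, and few T>C reads per subunit gene, precision was limited.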

Additional observations from a re-analysis of the deposited data

How the results depend on the processing

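With the sum of S. cerevisiae reads or with S. pombe reads, 32 genes were lower and 0 higher in T>C reads in each strain's depletion. Of all genes, 81.7% in the control strain and 83.7% in the ET strain were lower with S. pombe. The median of all genes with the sum of reads was -1.61 and -1.40. With TMM factors 3 and with DESeq2 9 were lower in the ET strain, against 11.4% and 22.8% of all genes. For T>C reads with IAA, the ET strain was higher than the control strain in 11 genes with the sum of reads, 2 with S. pombe, and 0 with TMM, with no filter or with only the groups compared. For all reads with median-of-ratios size factors, 6 genes were lower and 6 higher on depletion in the control strain, 3 lower and 7 higher in the ET strain, and with IAA 2 were lower and 2 higher in the ET strain. With the sum of reads 23 were higher, a setting for which the share of all genes is not given here. The cause was not tested.

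Leaving out 1 library gave 14 to 19 genes lower in T>C reads in the control strain and 6 to 15 in the ET strain, 0 to 0 higher in the ET strain with IAA, 0 to 1 higher in all reads on depletion in each strain, 0 to 28 higher in all reads in the ET strain with IAA, and 0 to 1 for the labelled share there. For the labelled share on depletion, 14 to 21 and 12 to 17 genes were lower. The shares of all genes with 1 library left out are not given here, so these ranges describe only how steady the counts were.

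These log2 changes turned sign. For T>C reads in the control strain, PRE4 was 0.22 with TMM and -0.30 to 0.11 with 1 library left out (above 0 without control DMSO B or control IAA B), RPN2 was 0.25 with TMM and -0.31 to 0.11 (above 0 without control IAA A), RPN5 was 0.053 with TMM, and RPN4 was -0.024 with S. pombe. In the ET strain RPN2 was -0.85 with the sum of reads, -1.11 with S. pombe and -0.080 to 0.22 with 1 library left out (below 0 without ET IAA A), RPN5 was 0.26 with TMM and -0.29 to 0.0039 (above 0 without ET DMSO C), SCL1 was 0.069 with TMM, and RPN4 was -0.16 with S. pombe. For all reads with size factors, PRE4 was 0.025 and 0.00057, RPN2 0.79 and 0.60, RPN5 0.15 and 0.15, and RPT6 0.17 and 0.22 in the control and ET strains. For the labelled share in the control strain PRE4 was -0.30 to 0.012 (above 0 without control DMSO B or control IAA B). Over the genes described in every library, 558 of the other values kept direction and side of the threshold, 91 no longer passed and 17 newly passed.

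Replicate letters were not taken to pair the libraries, since the labels name nothing shared and no correlation of deviations between same-lettered libraries was over 0.1. These lay between 0.072 and 0.0885 in the ET strain, where those of unlike letters lay between -0.064 and -0.0118. Deviations from a group mean sum to 0, so positive values for like letters push those of unlike letters below 0. The latter are not separate evidence of pairing. Each library there correlated best with its own letter, a hint from the data and not from the design. In the other comparisons those of like letters lay between -0.104 and 0.017. These correlations used T>C reads scaled by size factors and do not cover all reads scaled by S. pombe. On that scale the sum of the 33 genes rose from A to C in both ET groups. It was 78033.9, 86646.5 and 109976 under DMSO and 37407.9, 46818.7 and 54498.9 under IAA. The control strain had 81947.3, 81039.8 and 79035.6 under DMSO and 36189.4, 37702.6 and 35053.3 under IAA. Pairing on that scale was not tested. With the letter as a replicate block, 18 genes were lower and 1 higher in T>C reads in the control strain, 15 and 1 in the ET strain, and 15 were higher in all reads in the ET strain with IAA. The shares of all genes with this block are not given here. DESeq2 gave no adjusted p for 14 genes in the comparison of strains with IAA. The low number of T>C reads limits every subunit gene: SCL1, RPN10 and PRE8 had as few as 2 in a library.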
